A study of Mus musculus with 14 samples.

Results

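Genes of the axon initial segment, the node of Ranvier and neuronal adhesion were examined in single retinal ganglion cells (RGCs), the output neurons of the retina. The 10 genes were taken by name, with no measured value in the rule: the ankyrins Ank2 and Ank3, the spectrin Sptbn4, the adhesion genes Nfasc, Nrcam, L1cam, Ncam1 and Thy1, and the paranodal pair Cntn1 and Cntnap1. They were covered by 34 array probe sets that map to a single gene, of 34945 such probe sets and 18193 genes in all. The data were 14 tdTomato+ cells from dissociated retinas of adult mice, with 1 Affymetrix array per cell, named cell 1 to cell 14 and forming 1 group. The mice were double heterozygotes from a mixed background, carrying PV-Cre (Cre expressed from the parvalbumin gene, Pvalb) and Ai9, a reporter that makes tdTomato once Cre has acted. The label therefore marks a cell's history of Cre activity, and uneven brightness may have favoured the picking of some cells. There was no other group to compare with. The animal behind a cell was not given, so an SD given here describes the spread between cells.

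The axon initial segment is the stretch of axon next to the cell body where action potentials start. Ankyrin-G, the product of Ank3, is its master scaffold. It holds voltage-gated sodium channels, the adhesion molecules neurofascin (Nfasc) and NrCAM (Nrcam), and beta-IV spectrin (Sptbn4), which ties the complex to actin. The same set gathers at nodes of Ranvier, where contactin-1 (Cntn1) and Caspr (Cntnap1) build the flanking paranodal junctions with myelinating glia. Ankyrin-B (Ank2) lines the rest of the axon. In mice, RGC axons are unmyelinated inside the retina and gain myelin in the optic nerve, so that nodes lie far from the cell bodies sampled here.

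Members of the set were found in most cells. Detection required a MAS5 signal, the array's linear intensity value, of 8-fold the median signal of the same array or more. Each gene was read from 1 probe set, that of the highest mean on the log2 scale, and levels of different genes share no scale. By this rule 9 of the 10 genes were detected in at least 7 cells, or 90.0%, against 24.8% of all genes, and 3 of 10 were detected in all 14 cells (30.0%), against 2.64% of all genes. The median was 13 cells per member gene and 1 cell per gene over all genes. Genes of neurons were the ones asked for here and the cells were neurons, so the comparison describes the list and was not tested. A gene that was not detected may still have been expressed, since an oligo-dT primer favours 3′ ends and rare transcripts can be lost in PCR.

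Library quality varied between cells. Detected probe sets numbered 4191 in cell 5 to 11910 in cell 12, with a median of 7455, and the array medians lay between 8.02 and 55.0. Of 12 RGC markers other than Thy1, each cell showed 8 to 12. Rod markers were at 9 and 8 of 10 in cells 3 and 6 and at 1 to 3 of 10 in the other cells. Müller glia markers ranged from 0 to 5 of 11 (Clu in 12 cells, Glul in 8, Dkk3 in 7 and Rlbp1 in 4, with Apoe, Aqp4, Sox9 and Cp in none), and oligodendrocyte markers from 0 to 2 of 5 (Mbp in 7 cells, Mog and Mobp in none). Of 3 astrocyte markers a cell showed at most 1, with Gfap in no cell. The paper also places Pvalb in a minor group of amacrine cells. Each cell showed 0 to 2 of 8 amacrine markers, with the most in cell 5, and Slc6a9 reached 6 cells. Pvalb and Pou4f1 were undetected in cell 5, which showed 8 of 12 RGC markers, as did cells 13 and 14. Bipolar markers stood at 0 to 2 of 6, with Prkca in 8 cells. Endothelial and microglia markers stood at 0 to 2 of 9, highest in cells 5 and 6. Cone and horizontal markers numbered at most 1 per cell. The part of these other cell types in the signals below was not tested.

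**Figure D1:**
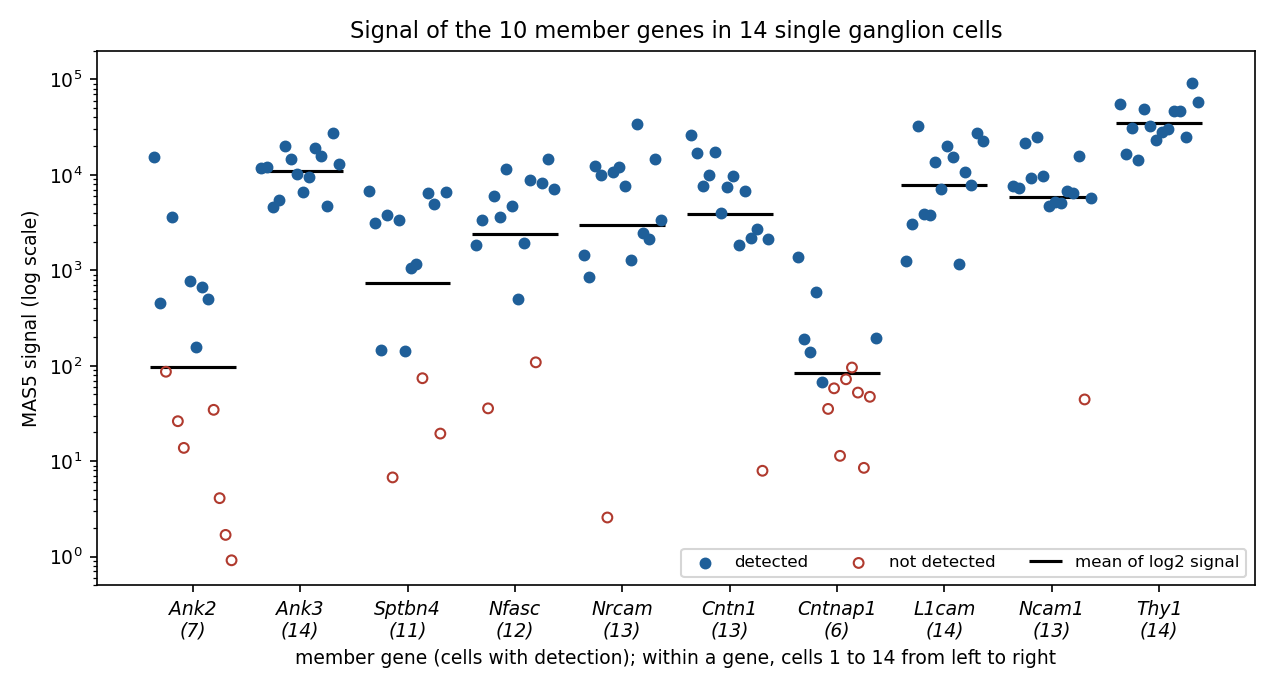
MAS5 signal on a log scale (vertical axis) of the 10 member genes (horizontal axis, each with its count of cells in brackets), with cells 1 to 14 running from left to right within each gene. Filled points are detected values, open points are not detected, and the black bar is the mean of the log2 signals. Ank3, L1cam and Thy1 have no open point, while Ank2 and Cntnap1 have 7 and 8.

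Ank3, the scaffold on which the initial segment depends, was detected in every cell. Its signal was 4556 at the lowest (cell 3), 11824 at the median and 27634 at the highest (cell 13). The mean was 13.41 ± 0.80 on the log2 scale (SD, n = 14), a spread about as small as that of Thy1.

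The other Ank3 probe sets gave a different picture. Probe set 1452124_at was detected in 11 cells, where it read 308 to 29663, and gave at most 30.8 in cells 3, 5 and 13. Cells 5 and 13 are the same cells that read highest with 1452872_at, the chosen probe set, at 19942 and 27634. Over the 14 cells these probe sets had r = -0.25 (Pearson, on log2(signal + 32)) and rho = -0.20. Probe set 1447259_at was detected in cells 6, 11 and 12 only, at 6457, 1142 and 1257, and read at most 63.0 elsewhere. Probe set 1451628_a_at was detected in 5 cells, 1425202_a_at in cell 4 and 1457288_at in none. Ank3 makes many splice forms, and the place of each probe set along the transcript was not examined here.

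Ank2, which encodes ankyrin-B, was detected in 7 of the 14 cells. Its chosen probe set read 15234 in cell 1 and 3614 in cell 4. It read 770 in cell 7, 662 in cell 9, 498 in cell 10, 450 in cell 2 and 156 in cell 8. In the remaining 7 cells it read 0.91 to 86.5. Cell 8 at 156 and cell 3 at 86.5 lay within a 2-fold range of each other, so the cut for detection did not fall at a clear gap. A probe set from the same source sequence was detected in 6 of these 7 cells, at 33149 in cell 1 and 5688 in cell 4, and the pair followed each other closely (r = 0.93, rho = 0.89, n = 14). This kind of probe set, with the suffix _s_at, can share probes between transcripts. The other 4 Ank2 probe sets were detected in no cell and never read above 67.3. Both ankyrins were detected together in the 7 cells that had Ank2.

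Sptbn4 had a single probe set, detected in 11 cells. The lowest of the 14 values was 6.76 in cell 5, the median 2147 and the highest 6711 in cell 1. Cells 5, 10 and 13 lacked it, with signals of at most 74.0, and cells 3 and 7 read 148 and 142, not far above their thresholds of 122 and 125. Its mean was 9.53 ± 3.38 (log2 signal, SD, n = 14).

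Neurofascin, made from Nfasc, exists as a neuronal form of initial segments and nodes and a glial form of paranodes, which a 3′ measurement need not separate. The chosen Nfasc probe set was detected in 12 cells. Its 14 values ran from 35.8 in cell 3 through a median of 4168 to 14565 in cell 13, and cell 11, at 109, was the other cell without detection. A second probe set was detected in 11 cells, 10 of them shared, yet the levels of the pair were only loosely related (r = 0.28, rho = 0.18, n = 14). In cell 11 the second one read 2654 and was detected, so that by any probe set Nfasc was found in 13 cells and missed in cell 3 alone. Another probe set was detected in cells 2 and 7 at 196 and 366.

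Nrcam, the partner of neurofascin at the initial segment, was detected in 13 cells. Signals ran from 847 in cell 2 to 33766 in cell 10 where it was detected, with a median over all cells of 5545, and stood at 2.57 in cell 5. A second probe set was detected in 11 of the 13 cells and read 0.86 in cell 5, and the pair had r = 0.72 and rho = 0.71 over the 14 cells. Of the remaining Nrcam probe sets, 1443281_at was detected in cell 12 only, at 141, and 1458833_at in none.

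L1cam, the founding member of the L1 family to which Nfasc and Nrcam also belong, was detected in all 14 cells. The lowest signal was 1158 in cell 10, the median 9238 and the highest 32811 in cell 3. Cell 1, at 1249, was as low as cell 10, and both had the highest array medians, 55.0 and 36.5, with thresholds of 440 and 292. The mean was 12.94 ± 1.57 (log2 signal, SD, n = 14). A second L1cam probe set from the same reference transcript was detected in 9 cells at 449 to 3476, and missed cells 1, 5, 10, 13 and 14, where it read at most 252. Nfasc, Nrcam and L1cam were all detected in 11 cells.

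Ank3, Sptbn4, Nfasc and Nrcam, the 4 genes of the initial segment scaffold and its adhesion molecules, were detected together in 9 cells (cells 1, 2, 4, 6, 7, 8, 9, 12 and 14). Each of the other 5 cells lacked 1 or 2 of them by this rule. Cell 3 lacked Nfasc, cell 10 Sptbn4, cell 11 Nfasc by the chosen probe set, cell 13 Sptbn4, and cell 5 both Sptbn4 and Nrcam. All 10 member genes were detected in cells 1, 2 and 4.

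Promoter sequences, from RefSeq on build GRCm38.p6, were at hand for 6 of the 10 genes and 16 annotated transcript starts: Ank2 and Sptbn4 with 4 starts each, Cntn1 with 3, Nfasc and L1cam with 2 and Nrcam with 1. Each covers 250 bases before and 50 after a start. The GC box GGGCGG was searched on both strands. The TATA box, TATAAA, was searched likewise, and matches to one cannot overlap matches to the other. A GGGCGG match was present at 8 of 16 member starts, against 35.7% of all 32851 promoters, and a TATAAA match at 2 of 16, against 13.6%. The matches to GGGCGG lay at Nrcam, at both L1cam starts, which overlap each other, at all 4 starts of Sptbn4 and at 1 of 2 of Nfasc, while Ank2 and Cntn1 had none in these windows. A match is a run of letters and not evidence of binding. These arrays do not show which start a cell used. Nrcam and L1cam, L1 family genes found in 13 and 14 cells, are printed as examples. The first listed start of Ank2, the ankyrin found in 7 cells, is printed with them so that base composition can be compared. Capitals mark GGGCGG or TATAAA on either strand. The Nrcam promoter is chr12:44328635-44328934 (plus strand), that of L1cam chrX:73880741-73881040 (minus strand) and that of Ank2 chr3:127499066-127499365 (minus strand). They hold 37, 25 and 21 CG dinucleotides. Over the 16 member starts the count ran from 1 to 41 with a median of 8, against a median of 7 over all promoters, and the other Ank2 starts held 5, 5 and 2. The starts of Cntn1, detected in 13 cells, held 9, 5 and 4, and those of Nfasc, detected in 12, held 7 and 3. Those of Sptbn4, detected in 11, held 41, 33, 24 and 1. A link between these counts and detection was not tested.
Nrcam: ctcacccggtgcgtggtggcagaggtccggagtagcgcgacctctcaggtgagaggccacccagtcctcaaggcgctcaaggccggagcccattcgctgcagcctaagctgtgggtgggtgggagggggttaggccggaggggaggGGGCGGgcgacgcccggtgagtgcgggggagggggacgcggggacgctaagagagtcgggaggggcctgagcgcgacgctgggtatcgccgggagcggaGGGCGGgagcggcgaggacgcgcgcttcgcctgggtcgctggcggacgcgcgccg
L1cam: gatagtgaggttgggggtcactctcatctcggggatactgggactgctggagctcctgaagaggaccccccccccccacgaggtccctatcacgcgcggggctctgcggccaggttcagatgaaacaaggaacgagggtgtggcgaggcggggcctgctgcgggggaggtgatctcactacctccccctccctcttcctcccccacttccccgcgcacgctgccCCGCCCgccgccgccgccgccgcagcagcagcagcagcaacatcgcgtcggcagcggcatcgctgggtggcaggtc
Ank2: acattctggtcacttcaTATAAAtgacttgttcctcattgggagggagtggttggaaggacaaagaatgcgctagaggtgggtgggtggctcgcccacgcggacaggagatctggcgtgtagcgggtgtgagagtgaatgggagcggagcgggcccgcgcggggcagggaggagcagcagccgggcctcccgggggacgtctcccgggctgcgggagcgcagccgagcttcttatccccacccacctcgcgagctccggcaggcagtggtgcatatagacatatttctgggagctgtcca

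The paranodal partners differed from each other. Cntn1, a glycolipid-anchored adhesion molecule of axons, was detected in 13 cells, at 1842 in cell 9 to 26101 in cell 1, with a median of 7082 over all cells. It read 7.93 in cell 13. A second Cntn1 probe set was detected in 8 cells, all among the 13, with r = 0.29 and rho = 0.06 against the first over 14 cells. Another was detected in cell 1 alone, at 499.

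Cntnap1, whose product Caspr binds Cntn1, was the member found least often, in 6 cells. Signals were 1369 in cell 1, 588 in cell 4, 197 in cell 14, 193 in cell 2, 141 in cell 3 and 68.2 in cell 5. The value of cell 5 passed a threshold of 65.3 there, while cell 10 read 95.8 and was not detected, so that detected and undetected signals overlapped. Only 1 probe set was measured, and Cntnap1 was detected in 3 cells at 16-fold the array median and in 1 cell at a fixed signal of 1000. Nfasc, Cntn1 and Cntnap1 were detected together in 5 cells.

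Ncam1, the neural cell adhesion molecule, was detected in 13 cells. Signals there lay between 4772 in cell 7 and 25083 in cell 5, and the median over all cells was 7053. Cell 13 was the exception at 44.3, where none of the 7 Ncam1 probe sets was detected. A second probe set from the same source sequence was detected in 9 of the 13 cells, with r = 0.22 and rho = 0.09. It read 1.54 to 16.3 in cells 1, 5, 8 and 11, in which the first read 5143 to 25083. Another was detected in cells 3, 6, 11 and 12, another in cells 3 and 11, and 3 were detected in none.

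Thy1, a glycolipid-anchored surface glycoprotein long used as a label for RGCs, had the smallest spread of the 10 genes. Signals ran from 14466 in cell 4 through a median of 31615 to 90947 in cell 13, with a mean of 15.09 ± 0.74 (log2 signal, SD, n = 14).

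**Figure D2:**
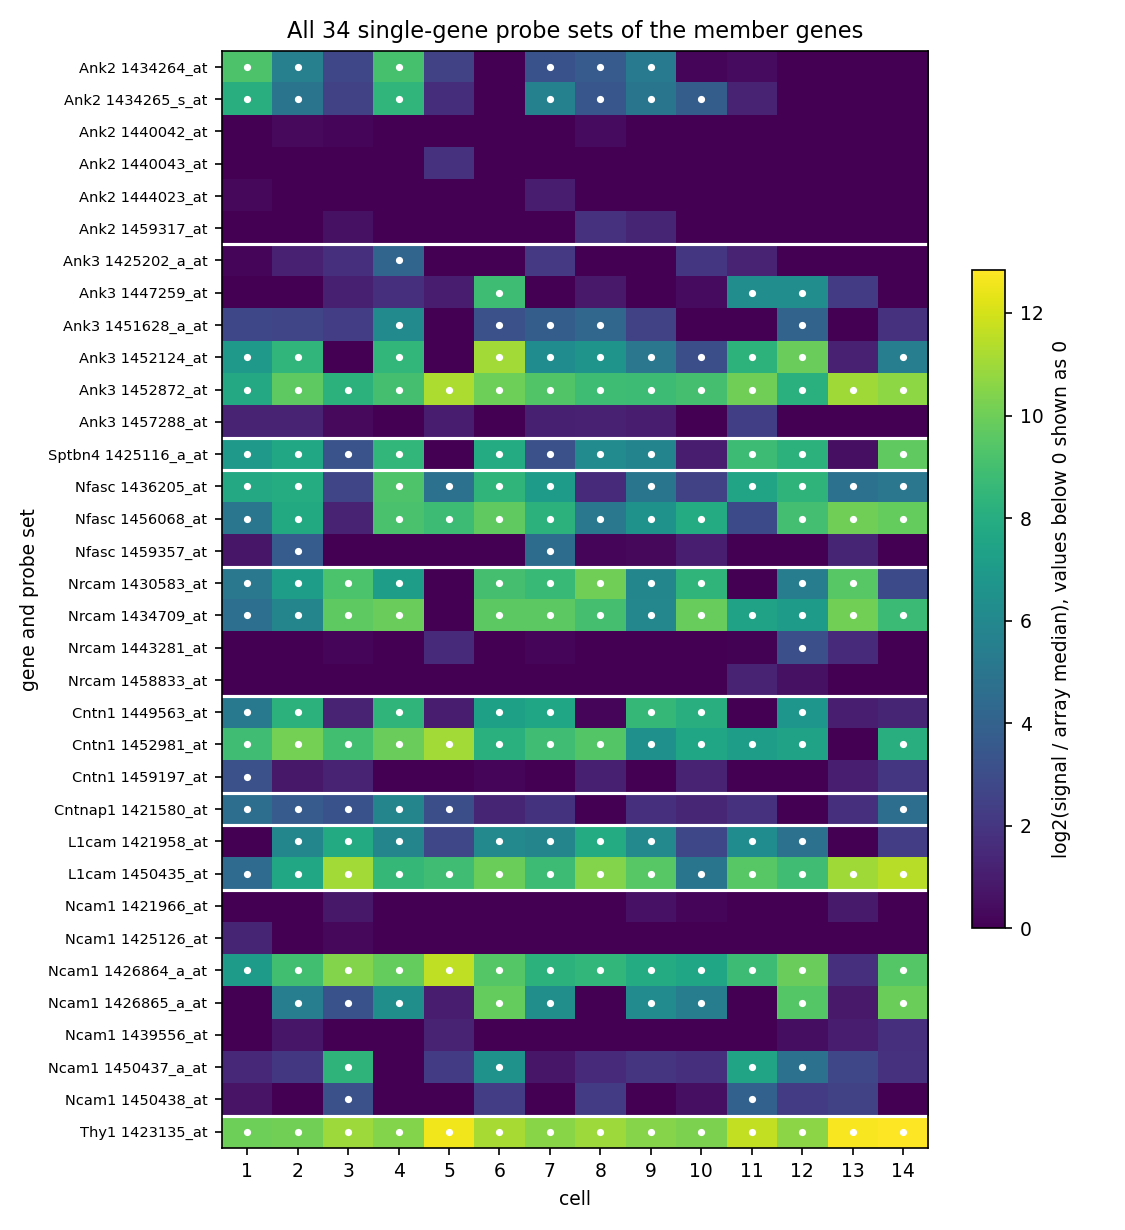
Log2 of signal over the array median (colour, with values below 0 drawn as 0) for the 34 single-gene probe sets of the member genes (rows, grouped by gene) in cells 1 to 14 (columns), with a white dot where the probe set was detected. Rows of 1 gene often differ, as for Ank3, where 1452872_at is dotted in 14 cells and 1447259_at in 3.

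Probe sets of a member gene often disagreed. Of the 34, 15 were detected in at least 7 cells (44.1%, against 18.7% of all single-gene probe sets) and 3 in all 14 (8.82%, against 1.93%). Of the others, 10 were detected in 1 to 6 cells, while 9 never were. Among the 14 pairs of probe sets of 1 gene with at least 3 detections each, r ran from -0.73 to 0.93. The lowest was that of Ank3 probe sets 1451628_a_at and 1452872_at (rho = -0.74), and the highest that of the Ank2 pair. With the mean log2 signal of all probe sets of a gene in place of the chosen one, Thy1 was the only member detected in every cell, and Ank3 was detected in 7 of 14 cells, Nrcam in 5, Ncam1 in 3 and Ank2 in none.

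The number of members detected per cell was 5 in cell 13, 7 in cells 5 and 11, and 8 to 10 in the others, with a median of 8.5. Of all genes, 14.9% were detected in cell 13, 14.0% in cell 5 and 23.9% in cell 11, with a median over cells of 25.1% and a highest value of 37.6%. Cell 13 lacked Ank2, Sptbn4, Cntn1, Cntnap1 and Ncam1, and it held the highest MAS5 signals of Ank3, Nfasc and Thy1. Taken over the array median, Nfasc was still highest there, but Ank3 was highest in cell 5 and Thy1 in cell 14. By percentile rank within the array, Ank3 and Nfasc were highest in cell 6 and Thy1 in cell 14. Cells 5 and 13 also had the fewest detected probe sets, 4191 and 4362. Over the 14 cells the number of members detected went with the number of probe sets detected (r = 0.57, rho = 0.51), and each pair of values shares an array. Without these cells, 6 members were detected in all 12 remaining cells.

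Signals of Thy1 and Ank3 moved with the same measure. Signals of Thy1 were lower in cells with more detected probe sets (r = -0.79), as were those of Ank3 (r = -0.62). L1cam, also detected in every cell, had r = -0.16, and the median over the 480 genes detected in all 14 cells was r = -0.33. With signal taken over the array median, r was -0.67 for Thy1 and -0.53 for Ank3. Percentile ranks within each array gave r = -0.0043 for Thy1 and -0.15 for Ank3. The ranks of Thy1 lay between 99.0 and 99.9 and those of Ank3 between 91.4 and 98.0. Ranks so near the top have little room to vary, so no conclusion is drawn from these r values. Thy1 also followed the ratio of 3′ to 5′ Gapdh signal, a measure of RNA quality that ran from 1.09 in cell 4 to 2.61 in cell 14 (r = 0.71 on log2 values, n = 14). The same ratio for Actb varied far more, from 1.81 in cell 4 to 106.5 in cell 11, with a median of 3.44 and 23.8 in cell 5. Their part in the levels was not tested.

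**Figure D3:**
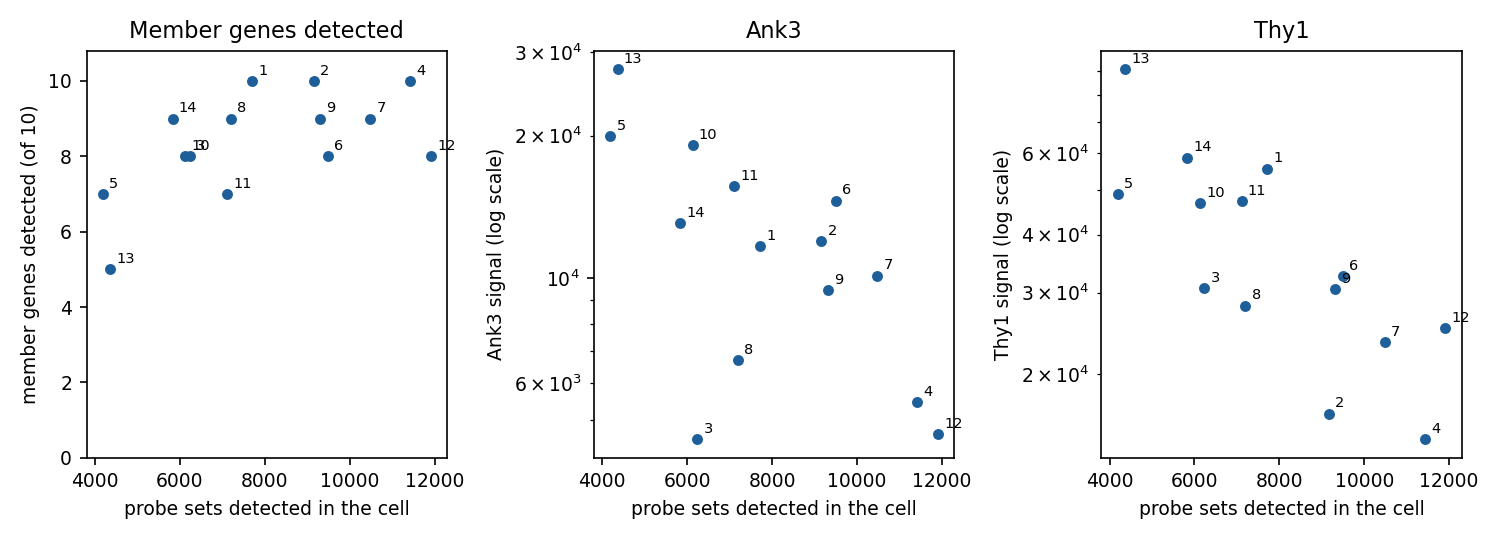
Member genes detected, Ank3 signal and Thy1 signal (vertical axes, signals on a log scale) against the number of probe sets detected (horizontal axis) in each of the 14 cells, labelled by number. Cell 13 has 5 members detected and the highest Ank3 and Thy1 signals, 27634 and 90947, and cell 4 has 10 members and the lowest Thy1 signal, 14466.

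With each gene read from its chosen probe set, the share of member pairs that moved together was close to that of gene pairs at large. Of the 45 pairs of member genes, 4 had r of at least 0.5, or 8.89%, against 8.81% of all pairs of genes detected in at least 6 cells. There were 5 pairs (11.1%) at -0.5 or below, against 4.03% of all pairs. The median r was -0.05, against 0.08 for all pairs. Probe sets of 1 gene had r from -0.73 to 0.93 with each other. A low r between members therefore cannot be told apart here from disagreement between probe sets. These values are descriptions over 14 cells that share a mouse line, an array type and a protocol.

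Cntn1 and Ncam1 had the highest r, at 0.84 (rho = 0.53), and this rested on cell 13, where both were undetected. Without that cell r was 0.26. Ank2 and Cntnap1 had r = 0.75 and rho = 0.49, with both genes highest in cells 1 and 4, and r = 0.23 without the pair of cells farthest from the Ank2 median. Ank2 had r = 0.61 with the log2 array median, and L1cam r = -0.55. Their part in these pairs was not tested. Ank3 and Thy1 had r = 0.69 and rho = 0.67, and r = 0.42 once both were adjusted for the number of probe sets detected. Ank2 and Cntn1 had r = 0.53 and rho = 0.54, which was 0.44 to 0.61 when any 1 cell was left out. In the other direction, Ank2 and L1cam had r = -0.64 and rho = -0.56, and r stayed between -0.71 and -0.49 without any 1 cell. L1cam read 1249 in cell 1 and 3851 in cell 4, where Ank2 was highest. Pairs that meet in the initial segment had r nearer 0 over all 14 cells, with each gene read from its chosen probe set. No r between genes was computed for their other probe sets, so whether these genes vary together was not settled. Sptbn4 had r = -0.37 with the chosen Ank3 probe set, which was 0.04 without cells 5 and 13 and -0.59 without cells 3 and 6. Ank3 probe set 1452124_at read 7.69 and 30.8 in cells 5 and 13, which also lacked Sptbn4. Cell 3 had Sptbn4 detected without this probe set, and cell 10 the reverse. Probe set 1452124_at and Sptbn4 were both detected in cells 1, 2, 4, 6, 7, 8, 9, 11, 12 and 14. Their r was not computed. The value of -0.37 therefore holds for the chosen probe set only and gives no sign for Ank3 as a gene. Nfasc had r = 0.38 with Ank3, which was 0.26 without cells 5 and 13 and 0.10 without cells 3 and 6, and 0.05 with Nrcam.

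**Figure D4:**
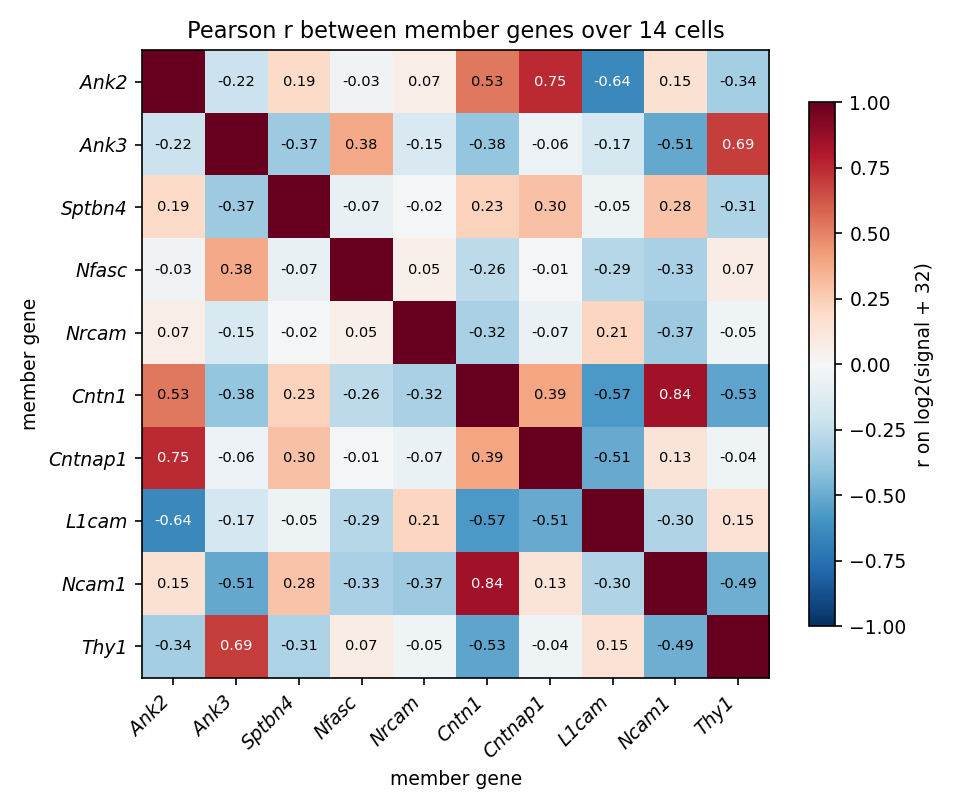
Pearson r on log2(signal + 32) over 14 cells for each of the 45 pairs of member genes (rows and columns), with red for positive and blue for negative values. The highest value is 0.84 for Cntn1 and Ncam1 and the lowest -0.64 for Ank2 and L1cam.

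The genes most like a member in pattern were looked for among 6882 other genes detected in at least 4 cells. Nrcam was closest to Pou4f1, a transcription factor of RGCs (r = 0.92, rho = 0.83), followed by Vps28 (r = 0.86) and Eif3f (r = 0.86). Cell 5, which lacked Nrcam, also had Pou4f1 undetected, at 10.5, and r was 0.78 without it. Ank3 was closest to Kifap3, a kinesin-2 subunit, to Septin3 and to Ywhab, a 14-3-3 protein (r = 0.83, 0.82 and 0.82), all detected in 14 cells. Sptbn4 was closest to Ndufa3, Polr2j and Snx16 (r = 0.92 each), and 42 genes reached r of 0.8 with it. Ank2 was closest to Chrna7, a nicotinic receptor subunit, at r = 0.89, then Brox and Ammecr1l, which were each detected in 4 or 5 cells. For Nfasc the closest were Grcc10 (r = 0.89), Arhgap21 and Stard10. For L1cam they were Tpm3, Mbd6 and Fbxo2, none above r = 0.77, and for Cntnap1 they were Tmed7 (r = 0.87), Pigt and again Chrna7. Without the 2 cells farthest from the member's median, r was 0.45 to 0.77 for the 3 genes of Nrcam and 0.61 to 0.67 for those of Nfasc. It was 0.45 to 0.63 for Cntnap1, 0.73 to 0.74 for Ank2 and 0.63 to 0.79 for L1cam. For Ank3 it was 0.75 to 0.79 and for Sptbn4 0.86 to 0.87. The named genes have the highest of 6882 r values for a member over 14 cells that share a protocol, and no function is implied.

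Other genes of the initial segment and node were also widespread. Of 20 measured partners, 13 were detected in at least 7 cells (65.0%, against 24.8% of all genes), and each of the other 7 in 1 cell or more. Sptan1, the alpha-II spectrin that pairs with Sptbn4, was detected in all 14 cells at 10449 to 121489, as were Fgf12, a modulator of sodium channels, and Camsap2, which caps microtubule minus ends. The microtubule protein Trim46, which bundles microtubules in the proximal axon, was in 12 cells, and the end-binding protein Mapre3 in 13. The nodal sodium channel Scn8a was detected in 13 cells, Scn2a in 10 and the potassium channel Kcnq3 in 9. Sptbn1, the beta-II spectrin of the axon shaft, was in 13 cells and was missing in cell 5, at 1.43. Ank3, Sptbn4, Scn8a and Trim46 were detected together in 11 cells. Fgf14 was in 2 cells, and the casein kinase subunit Csnk2a1, whose enzyme strengthens sodium channel binding to ankyrin-G, in 2. The proteoglycan Bcan was detected in cells 1 and 7 only.

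Of 10 genes of paranodes and juxtaparanodes, the next segment along a myelinated axon, 7 were detected in at least 7 cells (70.0%, against 24.8% of all genes). Kcnab2, a beta subunit of Kv1 channels, and the secreted ligand Lgi3 were in all 14. Cntnap2 (Caspr2) and Adam22 were in 12, and the Kv1 genes Kcna1 and Kcna2 and the scaffold Epb41l3 in 11 each. Cntn2, the contactin that pairs with Caspr2, was in 6 cells, and the postsynaptic scaffold Dlg4 in none, read from 1 chosen probe set. Cntnap2 was found in 12 cells where its paranodal relative Cntnap1 was found in 6, each through its own probes.

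Related adhesion genes varied. Of 17 measured, 7 reached 7 cells or more (41.2%, against 24.8% of all genes), or 3 at a fixed signal of 1000, while Cntn3 and Mcam reached no cell. The synaptic adhesion gene Cadm1 was in 12 cells and the axonal Cadm3 in 11, and the surface molecules Lsamp and Opcml were in 8 each. Close relatives of members were found in few cells: Chl1, of the L1 family, was in cells 6 and 9, Ncam2 in cell 12, and the contactins Cntn4, Cntn6, Cntn5 and Cntn3 in 5, 4, 1 and 0 cells. Cntnap4 and Cntnap5a were in 1 cell each.

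**Figure D5:**
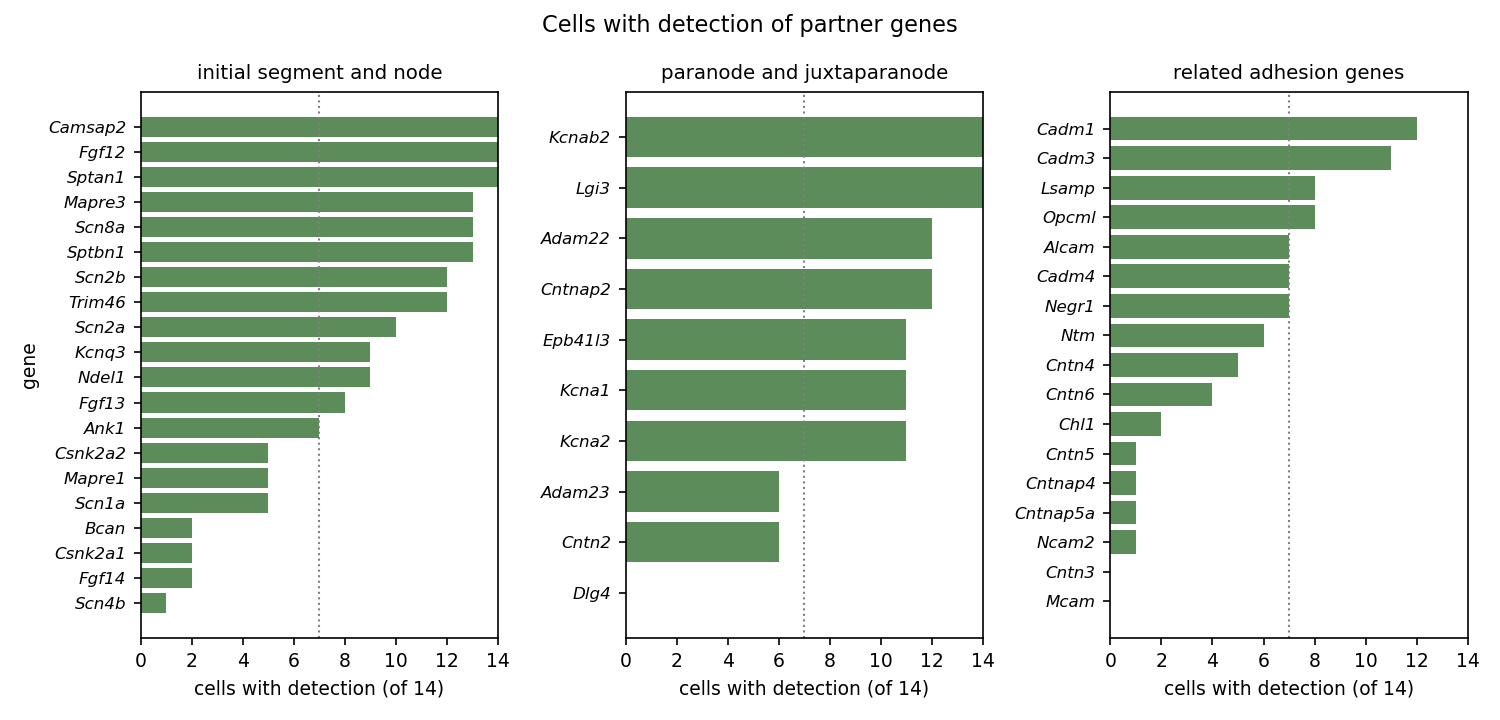
Number of cells with detection, of 14 (horizontal axis), for each measured gene of 3 lists (rows), with a dotted line at 7 cells. Camsap2, Fgf12, Sptan1, Kcnab2 and Lgi3 reach 14 cells, while Dlg4, Cntn3 and Mcam were detected in none.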

How the data were processed

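Retinal cells were lysed singly, and cDNA made from an oligo-dT primer was amplified by 35 cycles of PCR and hybridised to Affymetrix mouse arrays. The deposited values are signal intensities on a linear scale made by the authors with the MAS5 algorithm. No version of it is given in the sources consulted. Their trimmed mean (2%) was 500.0 for each array. The table held 45101 probe sets, of which 64 were controls. Gene names came from the platform annotation, and current symbols from RefSeq by Entrez number (34741 of 34945 single-gene probe sets matched). Probe sets with several genes (932) or unnamed (9160) were left out of gene counts. Foreign-transcript controls (27 probe sets, 378 values) gave no detection. No further normalization was applied. Correlations were computed on log2(signal + 32) and again without the 2 cells most distant from the first gene's median. They carry no p-value because the cells may share animals. The number of arrays limits the precision. The named genes are the 10 members with all their probe sets, partner genes of the fixed lists (those in most cells and those tied to a member) and, for 7 members, the 3 genes with the highest r. Members and lists were chosen with earlier results of these data known. Some listed partner genes are not reported here. Detection, probe set choice and correlation were tested on simulated data. Alternatives were detection at 4 or 16 times the array median, at a signal of 1000 or above the control probe sets, other ways of joining probe sets, quantile normalization, other pseudocounts and left-out cells. Python 3.11.15, numpy 2.4.6, pandas 2.3.3 and scipy 1.17.1 were used.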

Additional observations from a re-analysis of the deposited data

How the results depend on the processing

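The count of 9 members detected in at least 7 cells lay between 6 and 10 under the alternatives run. The median number of members detected per cell was 8.5. It was 7 at a fixed signal of 1000 and 6 with the mean of all probe sets. The number of members detected in every cell was 3. It was 1 with the mean of all probe sets, and 6 without cells 5 and 13, lowest in probe sets detected. At a signal of 1000, 3 related adhesion genes were detected in at least 7 cells in place of 7. The median r of the 45 member pairs, -0.05, was 0.016 on log2 of signal over the array median and 0.0079 without those 2 cells. Checks were added after the data were seen for 12 chosen pairs, leaving out 1 cell at a time and adjusting for detected probe sets. Among these pairs the sign changed for Nrcam and Pvalb alone, which had r = -0.21 without cell 5 and 0.61 with it. No paired analysis was possible because all cells form 1 group. A threshold tied to the array median lay between signals of 64.2 and 439.7.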

Other observations

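Pvalb, the gene that drives the label, was set beside the members. Nrcam had r = 0.61 with Pvalb but rho = 0.02, and r was -0.21 without cell 5, in which both were undetected. Sptbn4 had r = 0.51 and rho = 0.47, and r = 0.22 without cell 5. Ncam1 had r = -0.55 and rho = -0.36, and Thy1 r = 0.03 and rho = 0.33. Without the 2 cells farthest from the Pvalb median, r with Pvalb was -0.04 for Nrcam, -0.08 for Sptbn4, -0.66 for Ncam1 and 0.60 for Thy1, so the sign or size of these values rests on a few cells. Signals of a spiked-in hybridisation control ran from 38581 in cell 4 to 962350 in cell 1 after scaling, and cell 10 was next at 519272. Cells 1 and 10 also held the lowest L1cam signals and the highest array medians.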
